A study of Mus musculus with 6 samples.

Results

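C1q and Mrc1 macrophages low in Spp1, called C1q/Mrc1 macrophages below, were taken from single-cell RNA sequencing of 6 mice. A cell was a member if it held at least 10 unique molecular identifiers (UMIs, each standing for 1 captured RNA molecule) of C1qa, C1qb and C1qc together and at least 1 UMI of Mrc1. It also had to hold at most 4 UMIs of Spp1 and Gpnmb together, and none of Cd3d, Cd3e, Cd3g or Cd79a, which belong to T and B cells. The rule found 3274 members among 51633 cells that passed the quality limits (at least 250 genes detected and at most 5% mitochondrial UMIs), of 57078 deposited barcodes. Because the members were chosen by their measured UMIs of these 10 genes, those values describe the choice and were not tested. The libraries came from female C57BL/6 mice, 6 to 8 weeks old when mouse ovarian cancer cells of the line KPCA, proficient in homologous recombination, were injected into the ovarian bursa. Each of the 6 treatments was represented by 1 mouse and 1 library. The control mouse received solvent and rat IgG. The other mice received 2-deoxy-D-glucose (2DG), a glucose analog, at 500 mg/kg every 2 days from day 9, or 2FF, a fucose analog that blocks fucosylation and is named 2F-peracetyl-fucose in the labels, by gavage every 2 days. Anti-PD-L1 antibody was given at 5 mg/kg, 2 times a week for 3 weeks after day 9, by itself or with 2DG or 2FF, and all mice were sacrificed on day 30. In both 2FF groups the injected tumor cells had themselves spent 3 days in 2FF at 300 µM, so the drug reached the tumor cells and the host. Lymph node is the labelled tissue and the series description names young and aged mice, while the study describes orthotopic tumors. In the cells outside the C1q/Mrc1 macrophages, a list of 12 epithelial tumor cell markers summed to 40.1 to 97.3 CPM (UMIs of a gene relative to all UMIs of the summed cells, on the usual scale), 10 B and plasma cell markers to 69.8 to 406, and 15 T and NK cell markers to 280 to 3119.

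C1q, built from the chains A, B and C, starts the classical complement cascade and also coats dying cells for uptake by macrophages. Mrc1 encodes the mannose receptor CD206, an endocytic lectin that binds mannose and fucose residues on glycoproteins. In mouse tumors, C1q-rich macrophages are often set apart from macrophages rich in Spp1 (osteopontin), which tend to carry hypoxia and matrix genes. Ccl8 is a chemokine for monocytes and T cells, and Cxcl9 is an interferon-gamma-induced chemokine that draws T cells through CXCR3.

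Among cells with at least 10 C1q UMIs and no Cd3 or Cd79a UMI, the members made up 3274 of 6854. Their median C1q count per cell was 106, 61, 60, 61.5, 64 and 49 UMIs in the control library, then with 2DG, with 2FF and with anti-PD-L1, then with both 2DG and anti-PD-L1, and last with both 2FF and anti-PD-L1, and this order is kept for every series of 6 values below. Their median Mrc1 count was 12, 7.5, 7, 6, 7 and 7 UMIs, and 10.4% to 16.1% of members entered with a single Mrc1 UMI. No Spp1 or Gpnmb UMI at all was found in 45.9%, 59.1%, 59.9%, 61.9%, 67.1% and 52.7% of members. Cells on either side of the limits are given as a description. Members with 10 or 11 C1q UMIs held 1552 CPM of Apoe and 228 of Ccl8, pooled over the libraries, and cells with 8 or 9 held 1415 and 313, against 4152 and 704 in all members. Members with 3 or 4 Spp1 and Gpnmb UMIs held 44.4 CPM of Nt5e and 1290 of Cxcl9, and cells with 5 or 6 held 77.4 and 1071.

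General macrophage markers were present in most members of every library. A UMI of Csf1r, the receptor for macrophage colony-stimulating factor, was found in 85.2% to 94.1% of members, a UMI of Aif1 in 91.5% to 97.8%, a UMI of Cd68 in 79.2% to 86.4% and a UMI of Adgre1 (F4/80) in 50.2% to 77.9%. Lyz2, Mertk and Fcgr1 were found in 91% to 99.2%, 58.8% to 81.1% and 78.7% to 88.9%. The most abundant RNAs were Cd74, Tmsb4x, Actb, Fth1, H2-Ab1, Apoe and H2-Aa, so antigen presentation genes stood beside Apoe, a lipid carrier, among the leading genes. Markers of other cell types were summed as well. The 15 T and NK cell markers summed to 6.81 to 93.9 CPM, with Gzma at 35.8 the highest gene, and the 10 B cell markers to 4.49 to 8.91, with Fcmr at 0 in every library. Of 12 tumor cell markers mostly Cdh1 was present (11.5, 33.1, 33.6, 48.3, 25.1 and 38.6 CPM), and Cldn3 was at 0. The 12 neutrophil markers summed to 823, 655, 193, 78.6, 74.3 and 648 CPM, led by S100a9, Csf3r or S100a8. The 12 stromal markers summed to 28.8 to 126 CPM (105 to 125 in the other cells), mostly Pecam1, with Upk3b at 0, the 12 dendritic cell markers to 199.7 to 266 (289.6 to 463 in the other cells), mostly Bst2, and the 10 erythroid and megakaryocyte markers to 3.6 to 103, with Ms4a2 at 0.

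The control library stood apart from the others. T cells (at least 3 Cd3 UMIs and no C1q) made up 3.75% of its cells against 20.7% to 29.9% elsewhere, and cells with at least 20 UMIs of S100a8 and S100a9, the RNAs that lead in neutrophils, 34.5% against 2.04% to 3.73%. Of 9894 genes with at least 150 UMIs in the members, 181 (1.83%) lay at least 2-fold outside the range of the other 5 libraries in the control, 103 above and 78 below. The same count was 0 for 2DG and for anti-PD-L1, 1 for 2FF, 8 for 2DG plus anti-PD-L1 and 1 for 2FF plus anti-PD-L1. Control members were also deeper, with a median of 14508 UMIs against 9674 to 10686, and 37.9% of them held an S100a8 UMI, against 27.1% of the T cells of the same library, which should lack it. Most gene lists compared with the control are therefore also given over members that hold neither S100a8 nor S100a9, and over members that hold neither Hspa1a nor Hspa1b. Pairs of libraries shared 12 to 27 cell barcodes, and members of different libraries shared 1.

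The share of cells that were C1q/Mrc1 macrophages was, at full depth, lowest in the control and highest in 2DG plus anti-PD-L1. The control held 375 members (4.13% of its cells, 95% Clopper-Pearson interval 3.73 to 4.56) and the 2DG library 504 (6.54%, 6.001 to 7.12). The 2FF library held 665 (7.21%, 6.69 to 7.76) and the anti-PD-L1 library 438 (4.98%, 4.53 to 5.45). With both drugs, 2DG plus anti-PD-L1 held 745 (8.25%, 7.69 to 8.84) and 2FF plus anti-PD-L1 547 (7.01%, 6.45 to 7.60). The intervals of 2DG, 2FF and 2FF plus anti-PD-L1 overlapped with each other, that of 2DG plus anti-PD-L1 reached down to the 2FF interval, and those of the control and anti-PD-L1 met between 4.53 and 4.56. These intervals cover counting error only, and with 1 mouse per treatment the differences could not be tested. When cells were thinned to 3000 UMIs, 2123, 934, 1032, 1218, 954 and 751 shallower cells were left out and the shares among the remaining cells were 4.88%, 6.43%, 8.06%, 4.67%, 7.98% and 6.02%. Anti-PD-L1 was then below the control and 2FF above 2DG plus anti-PD-L1, with overlapping intervals in both pairs. The control lost the most cells, and its members went from 375 of 9075 to 339 of 6952, so depth and the cells counted changed together in these shares.

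Within the C1q-high cells, the members were 35.6%, 51.5%, 47.2%, 47.6%, 58.9% and 44.5%. Macrophages with at least 5 UMIs of Spp1 and Gpnmb (531, 290, 505, 251, 283 and 455 cells) outnumbered the members in the control library alone, at 0.706 members per Spp1 macrophage, against 1.20 to 2.63 elsewhere. The limits are UMI counts, and these values are at full depth only. The median depth of the Spp1 macrophages was 14336 UMIs in the control and 10553 to 12042.5 elsewhere. The part of depth in the ratio was not tested. Cells that met the rule but for a Cd3 or Cd79a UMI numbered 26, 82, 180, 54, 111 and 56, the highest number in the 2FF library, and adding them moved its share to 9.16%. Doublet scoring marked 5.95% to 7.76% of members. Of the Spp1 macrophages it marked 19.6%, 7.24%, 6.93%, 14.7%, 8.48% and 13.6%.

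**Figure D1:**
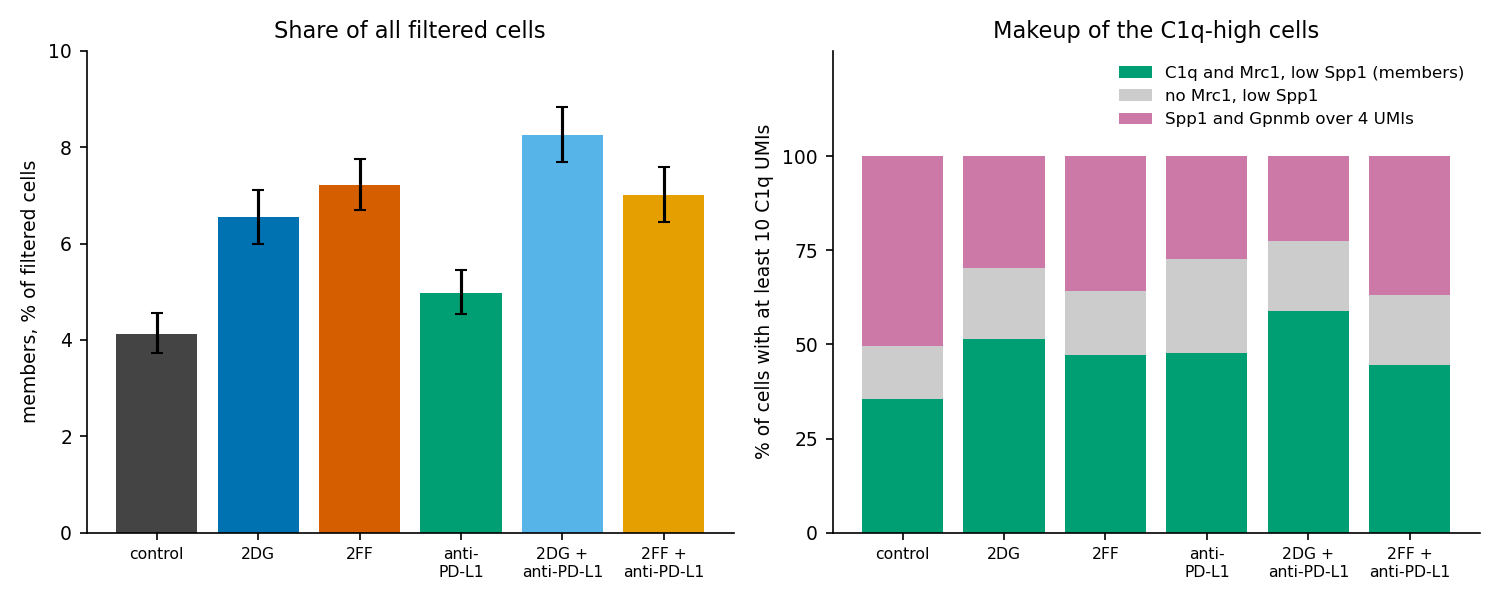
C1q/Mrc1 macrophages in the 6 libraries. Left, their percentage among cells that passed the quality limits, with bars from 0 and 95% Clopper-Pearson intervals that cover counting error only (1 mouse per bar). Right, the makeup of the cells with at least 10 C1q UMIs and no Cd3 or Cd79a UMI, where the members run from 35.6% in the control to 58.9% in 2DG plus anti-PD-L1.

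Ccl8 and Cxcl9, used to name these cells but not to choose them, were each found in some members and not in others. Ccl8 (chr11:82115185-82116799, plus strand, GRCm38) stood at 233, 707, 1065, 438, 883 and 702 CPM, with a UMI in 30.4, 40.9, 41.8, 32.4, 32.9 and 41.5% of members. Cxcl9 (chr5:92321347-92328079, minus strand) stood at 679, 1172, 1182, 1553, 1448 and 1201 CPM, with a UMI in 47.2, 61.3, 65.6, 62.8, 68.3 and 65.8%. The control was lowest in both. Summed RNA of a cell group cannot tell fewer cells with a transcript from less of it per cell, so the share of members with a UMI is given where it bears on a gene. Such shares are at full depth unless a depth is named, and control members were the deepest. At an equal depth of 3000 UMIs per cell the expected percentages were 18, 26.6, 31.3, 20.9, 24.4 and 24.1 for Ccl8 and 32.9, 49.3, 53.4, 53.9, 59.2 and 51 for Cxcl9. T cells, which should lack both RNAs, held a Ccl8 UMI in 0.294% to 5.19% and a Cxcl9 UMI in 2.06% to 6.72% of cells at full depth, where the median was 6803.5 UMIs per T cell in the control.

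The 250 bases before the start of each chemokine gene were read from the RefSeq promoter table (GRCm38.p6) and are shown because Ccl8 and Cxcl9 RNA were often found in the same cells. The letters TTCNNNGAA, the core of the interferon-gamma-activated site, read the same on both strands. They occurred in neither stretch, so no base is in capitals, and in 2306 of 32851 promoters of that length (7.02%). This says only that the letters are not in these windows. The Ccl8 stretch is chr11:82114935-82115184 on the plus strand and that of Cxcl9 is chr5:92328080-92328329 on the minus strand, both 5′ to 3′.
Ccl8: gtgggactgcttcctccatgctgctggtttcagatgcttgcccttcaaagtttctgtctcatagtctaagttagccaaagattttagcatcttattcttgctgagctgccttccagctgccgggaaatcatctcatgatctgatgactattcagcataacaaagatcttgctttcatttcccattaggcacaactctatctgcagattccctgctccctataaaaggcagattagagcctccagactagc
Cxcl9: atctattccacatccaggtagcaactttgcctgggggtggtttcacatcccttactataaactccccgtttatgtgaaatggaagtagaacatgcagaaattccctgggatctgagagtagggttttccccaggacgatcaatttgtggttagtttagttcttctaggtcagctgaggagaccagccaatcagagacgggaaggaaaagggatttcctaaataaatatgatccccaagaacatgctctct

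Both chemokines were found in 18.9%, 29.6%, 33.4%, 24.9%, 24.6% and 31.1% of members, and neither in 41.3%, 27.4%, 26.0%, 29.7%, 23.4% and 23.8%. Members with a Ccl8 UMI held Cxcl9 in 62.3%, 72.3%, 79.9%, 76.8%, 74.7% and 74.9%, and members without Ccl8 in 40.6%, 53.7%, 55.3%, 56.1%, 65.2% and 59.4%. Cxcl9 was thus more frequent beside Ccl8 in all 6 libraries. The median depth of members with Ccl8 was 15103, 10396, 10421, 9721.5, 10459 and 9914 UMIs and of those without it 13941, 10460.5, 9174, 10224, 9570.5 and 11053, so that the cells with Ccl8 were the deeper ones in 3 of the 6 libraries.

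Members with and without a chemokine UMI were then compared after each cell had been thinned to 3000 UMIs. Ratios are log2 values with 20 CPM added, as mean ± SD of the 6 libraries. Since cells were split by a measured RNA, these are descriptions with no test. Cells with Ccl8 carried more RNA of tissue macrophage genes. Pf4 (1.80 ± 0.60), Vcam1 (1.70 ± 0.62), the haemoglobin scavenger receptor Cd163 (1.56 ± 0.52), Selenop (0.94 ± 0.21), Maf (0.90 ± 0.27) and Apoe (0.89 ± 0.47) were higher in all 6 libraries. So were the monocyte chemokines Ccl7 (1.14 ± 0.40) and Ccl12 (1.12 ± 0.27). Of 16 genes of the resident macrophage list 9 were higher in all 6 (median of the list 0.79, of all 7759 genes -0.02), where 4.87% of all genes were. Of 12 monocyte genes 8 were lower in all 6 (6.92% of all genes were), among them Ccr2 (-1.11 ± 0.62) and Plac8 (-1.001 ± 0.45).

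In cells with Cxcl9, 20 of 25 interferon-gamma response genes were higher in all 6 libraries (median 0.37, of all genes 0.00, with 4.92% of all genes higher in all 6), led by the T cell chemokine Cxcl10 (0.94 ± 0.27), Iigp1 (0.91 ± 0.32), Gbp2 (0.78 ± 0.53) and Acod1 (0.74 ± 0.32), and 11 of 14 MHC class II genes were as well. Ccl5 (1.36 ± 0.42), complement C3 (0.77 ± 0.24) and Pdcd1lg2 (0.66 ± 0.33), which encodes the PD-1 ligand PD-L2, were higher. Lower in all 6 were F13a1 (-1.24 ± 0.84), Thbs1 (-1.12 ± 0.19), Saa3 (-1.11 ± 0.37), Fcna (-0.96 ± 0.42) and 7 of 16 resident genes, against 5.43% of all genes. Ccl8 (0.996 ± 0.65) was itself higher in cells with Cxcl9. Cells with Ccl8 in turn had more Cxcl9 (0.76 ± 0.38) and Iigp1 (0.73 ± 0.49), and 6 of 26 interferon-gamma response genes were higher in them in all 6 libraries. The difference between these splits was not tested.

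**Figure D2:**
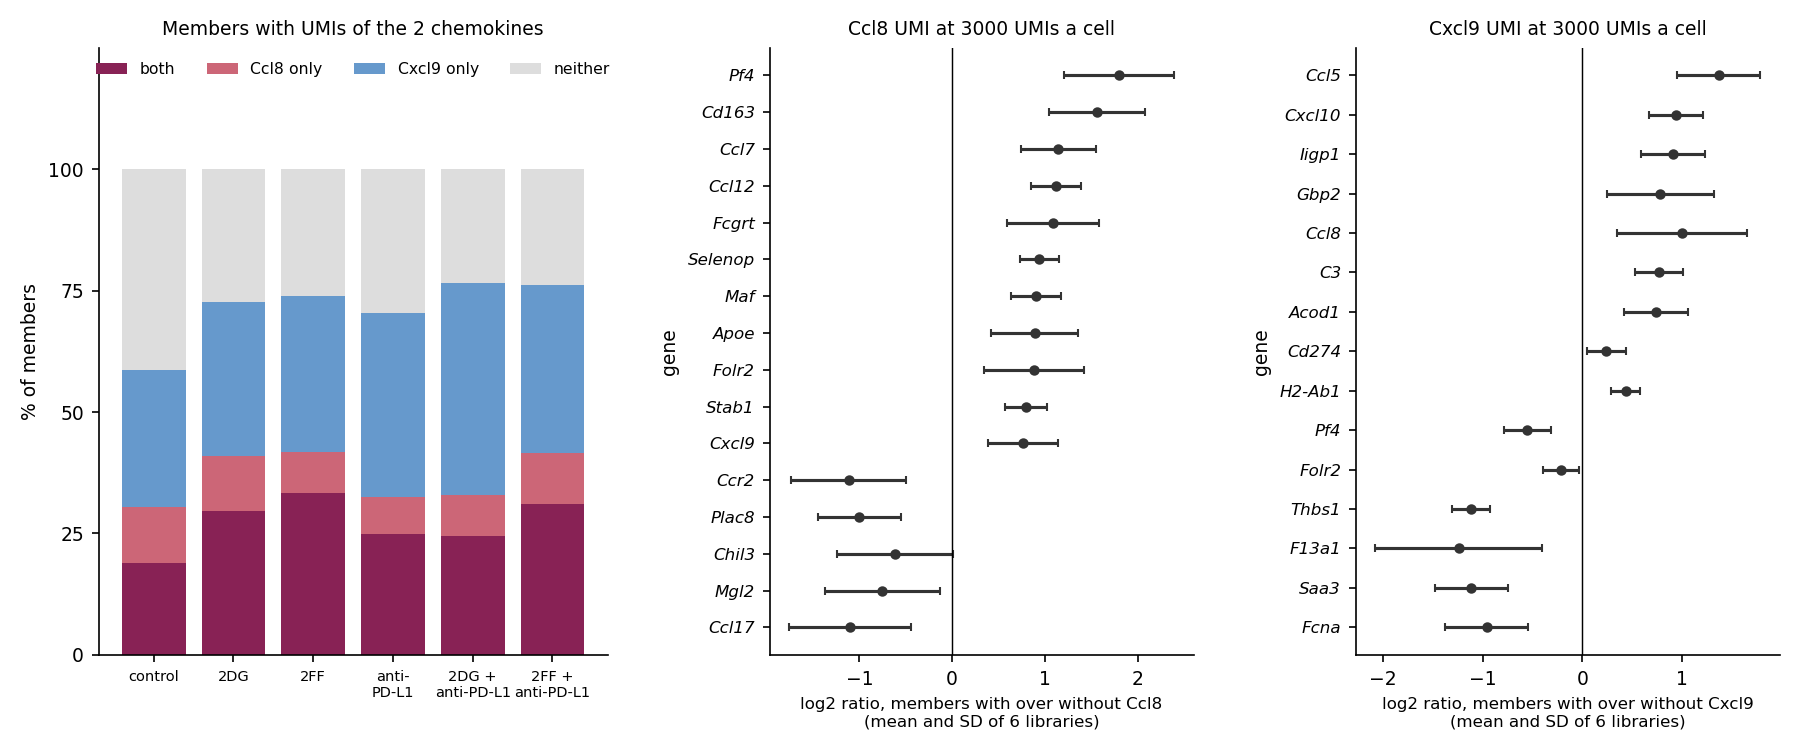
Ccl8 and Cxcl9 in the members. Left, percentage of members with UMIs of both, either or neither gene in each library. Middle and right, log2 ratio of CPM + 20 at 3000 UMIs per cell between members with and without the gene (points, mean of 6 libraries, bars, SD). Among the genes drawn, Pf4 is highest on the Ccl8 side and Ccl5 on the Cxcl9 side.

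Folr2, Lyve1 and Timd4, which mark long-lived tissue macrophages, were each found in a minority of members, unlike Mertk above. Folr2, a folate receptor, had a UMI in 14.1, 15.3, 21.8, 9.82, 16.4 and 17.9% of members, against 0% to 0.347% of T cells. Lyve1, a hyaluronan receptor, was found in 12, 3, 11, 2, 10 and 10 members and Timd4, a phosphatidylserine receptor, in 0% to 1.07%. Ccr2, the receptor by which monocytes leave the marrow, was found in 64% to 74.2% of members (405, 504, 422, 476, 443 and 441 CPM). T cells held Ccr2 as well, in 28% to 38.4%. Members with Folr2 at 3000 UMIs had more Fcna (1.86 ± 0.86), Ccl8 (1.82 ± 0.61), Cbr2 (1.66 ± 0.89) and C4b (1.19 ± 0.62) and less Mgl2 (-1.51 ± 0.91) and Ccl17 (-1.45 ± 0.99), with 18 to 68 such cells per library.

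The members were then set against other myeloid cells of the same mice, with edgeR's quasi-likelihood test on UMIs summed per mouse and cell group, the mouse as a block, and Benjamini-Hochberg adjustment over all genes. The gates use UMIs of the same cells, so genes whose RNA follows a gate gene are not independent of the gate. This holds for Spp1 and Mrc1, and for C1q, Ly6c2 and Lyz2 in the last comparison. The gate genes of each comparison were left out of it. The 3 comparisons share the members' libraries. Against Spp1 macrophages (2315 cells), 407 of 11296 genes were higher in the members (3.6%) and 578 lower (5.12%). The members held less RNA of hypoxia, angiogenesis and matrix genes. Of 22 genes of that list 18 were lower and 1 higher (median log2 fold change -1.18, of all genes 0.01), among them Vegfa (93.7 against 207 CPM, log2 fold change -1.23, adjusted p = 0.0045) and Mmp12 (124 against 304 CPM, log2 fold change -1.43, adjusted p = 0.0022). Of 17 glycolysis genes 12 were lower and none higher (median -0.61), with the glucose transporter Slc2a1 (-0.90, 0.014), Pgk1 (-0.77, 0.0097) and Gapdh (-0.61, 0.01) among them, values being log2 fold change and adjusted p. These lists share Slc2a1, Ldha and Pgk1. Of 26 lipid and lysosome genes 11 were lower and none higher, led by Cd9 (-1.30, 0.00027) and Ctsl (-0.99, 0.0031). The neutrophil chemokines Cxcl3 (-2.53, 0.0022) and Cxcl2 (-0.80, 0.022), the activin subunit Inhba (-2.53, 0.0022) and the ectonucleotidase Nt5e (-2.44, 0.0031) were also lower.

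Higher in the members than in Spp1 macrophages were 9 of 16 MHC class II genes (none lower, median 0.45), including H2-Eb1 (3619 against 2284 CPM, log2 fold change 0.66, adjusted p = 0.0067), the transactivator Ciita (0.69, 0.0065) and Cd74 (0.39, 0.03). Of 16 resident genes 6 were higher and 1 lower, with Selenop (0.92, 0.0044) and Cbr2 (1.45, 0.003), and of 26 interferon-gamma response genes 6 were higher and 1, Nos2 (-1.55, 0.0072), was lower. Cxcl9 (1206 against 841 CPM, log2 fold change 0.52, adjusted p = 0.023) was higher in all 6 mice, and so was Ccl5 (0.45, 0.018). For Ccl8 the test gave log2 0.56 with an adjusted p of 0.217 (671 against 544 CPM). Type I interferon genes went the other way from the interferon-gamma list, with 10 of 23 lower and none higher, such as Ifit1 (-1.05, 0.008) and Isg15 (-0.75, 0.024). The highest fold changes were Retnla (3.86, 0.0037), Cd5l (3.22, 0.0068) and Fgfr1 (2.41, 0.0037), and Retnla was found in 1.8% to 4.17% of members. The chemokine Ccl17 (2.35, 0.005) was higher in all 6 mice. Of 7 dendritic cell markers tested in this comparison, 6 were above 0 (median 1.03), with 1 past the threshold upward and 0 downward. Counts of genes depended on the mice, at 202 higher and 272 lower without 2DG, 173 and 268 without anti-PD-L1, and 257 and 361 without 2FF plus anti-PD-L1. Without the mouse as a block they were 53 and 143, and with Spp1 macrophages held to an Mrc1 UMI 439 and 569.

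Against C1q-high cells without an Mrc1 UMI and, like the members, with at most 4 UMIs of Spp1 and Gpnmb (1265 cells), 349 of 10369 genes were higher in the members (3.37%) and 674 lower (6.5%). Of 17 genes of the resident macrophage list 11 were higher and 1, Timd4 (-4.07, 0.00019), was lower (median 0.9997, of all genes 0.00). Cd163 (22.4 against 1.4 CPM, log2 fold change 3.86, adjusted p = 2.8e-05), Folr2 (33.4 against 8.36 CPM, log2 fold change 1.89, adjusted p = 0.0012) and Pf4 (208 against 55.3 CPM, log2 fold change 1.83, adjusted p = 0.0056) were among the higher ones. Of 12 CC chemokines 4 were higher and 2 lower. Ccl8 (671 against 154 CPM, log2 fold change 2.15, adjusted p = 0.00014), Ccl7 (1.62, 0.001) and Ccl12 (1.31, 0.00024) were higher in all 6 mice, and Ccl24 (1.15, 0.028) in 5. For Cxcl9 the test gave log2 -0.10 with an adjusted p of 0.708 (1206 against 1357 CPM), with the members higher in 2 mice and lower in 4. The phagocytic receptors Mertk (0.78, 0.0077) and Trem2 (0.88, 0.00042) and the neonatal Fc receptor Fcgrt (1.26, 0.0014) were higher, and 4 of 16 cell cycle genes were higher and none lower.

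Many genes of peritoneal macrophages and of monocytes were lower in the members than in the cells without Mrc1. Of 12 peritoneal genes 9 were lower and none higher (median -1.65), including Saa3 (834 against 1906 CPM, log2 fold change -1.27, adjusted p = 0.0027), Prg4 (25.6 against 179 CPM, log2 fold change -2.45, adjusted p = 0.0083) and Alox15 (18.1 against 107 CPM, log2 fold change -2.82, adjusted p = 0.0086). The same list holds Timd4, named above, and Selp (-1.96, 0.0016). Of 12 monocyte genes 8 were lower, with Plac8 (508 against 1377 CPM, log2 fold change -1.66, adjusted p = 0.0089) and Ly6c2 (-1.13, 0.036). Of the interferon lists 18 of 23 type I genes and 9 of 26 interferon-gamma genes were lower and none higher, among the latter Cd274 (-0.65, 0.011), which encodes PD-L1, Nos2 (-1.23, 0.0081) and Cxcl10 (-0.61, 0.011). The inflammatory cytokine Il1b (719 against 1196 CPM, log2 fold change -0.94, adjusted p = 0.0089) was lower too. Cells without an Mrc1 UMI were shallower (medians of 6478 to 10610 UMIs per cell against 9674 to 14508), and at 3000 UMIs per cell 315 of 7455 genes were higher and 505 lower. Counts were 192 and 360 without 2DG, 196 and 306 without 2FF, 214 and 427 without anti-PD-L1 and 272 and 412 without 2FF plus anti-PD-L1, and were 107 and 165 without the block.

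**Figure D3:**
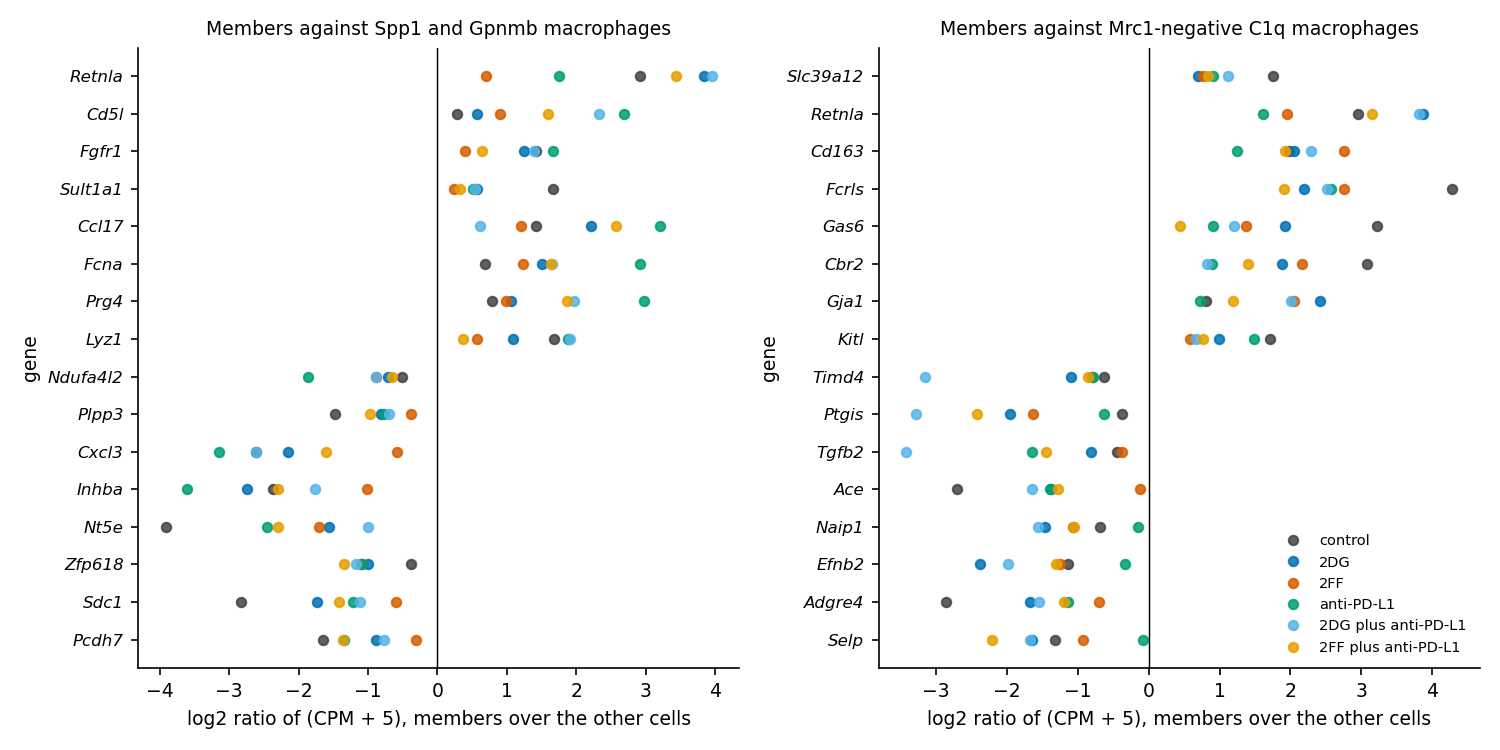
Members against other macrophages of the same mouse. Points are log2 ratios of CPM + 5, 1 per library, for the 8 highest and 8 lowest fold changes in each comparison among genes with an adjusted p under 0.05 and 1 direction in all libraries. Left, against Spp1 and Gpnmb macrophages, right, against C1q-high cells low in Spp1 and Gpnmb without Mrc1, where Cd163 and Fcrls lie right of 0 and Timd4 and Selp left of it in all 6 libraries.

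Against cells with at least 3 Ly6c2 and 10 Lyz2 UMIs and at most 2 of C1q (3182 cells, a gate meant for classical monocytes), 2855 of 11128 genes were higher in the members (25.7%) and 2855 lower (25.7%). These cells carried neutrophil granule RNA, with 6310 CPM of S100a9 and 1014 of Ngp, so they are called Ly6c2/Lyz2 cells here. When the gate was held to cells with Csf1r and without Ngp, Camp, Ltf and Retnlg UMIs, 2770 genes were higher and 2700 lower, while S100a9 turned from -6.50 to 0.49 (an adjusted p of 0.58 by edgeR). Of 16 resident genes 15 were higher and 1 lower (median 2.33, of all genes 0.02), and of 16 MHC class II genes 14 and 1, with H2-Eb1 (3619 against 338 CPM, log2 fold change 3.39, adjusted p = 3.3e-06). Ccl8 (671 against 5.45 CPM, log2 fold change 6.76, adjusted p = 7e-08) and Cxcl9 (1206 against 253 CPM, log2 fold change 2.27, adjusted p = 3e-05) were higher in all 6 mice. So were Apoe (2.53, 1.8e-06), Mertk (3.87, 1.1e-06), Stab1 (2.23, 2.7e-06) and Folr2 (4.81, 1.7e-06). All 11 monocyte genes tested were lower, such as Plac8 (-3.05, 8.5e-06), and so was Ccr2 (448 against 684 CPM, log2 fold change -0.77, adjusted p = 0.00013). The gates set these cells apart by Ly6c2, Lyz2 and C1q, so the calls of monocyte and resident genes describe that choice in part. Of 16 cell cycle genes 10 were higher and 1 lower.

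Between libraries, the difference in a gene was taken as the log2 ratio of CPM + 5 where the members of both libraries summed to 50 UMIs or more, and a count is of genes past 2-fold, with no p because each treatment has 1 mouse. The added 5 CPM understates the difference of low genes. Against the control, 138 of 9945 genes were higher (1.39%) and 195 lower (1.96%) with 2DG, 266 of 10029 (2.65%) and 414 (4.13%) with 2FF, and 158 of 9814 (1.61%) and 246 (2.51%) with anti-PD-L1. The median over all genes was -0.06, -0.11 and -0.04. With TMM factors the 2FF counts became 355 higher and 334 lower and its median 0.00. Over members without Hspa1a and Hspa1b fewer genes were tested and the balance turned in all 3 comparisons. With 2DG 180 of 6642 genes were higher and 137 lower. With 2FF 301 of 7508 were higher and 231 lower, and with anti-PD-L1 201 of 6691 and 119. These sets held 63 members in the control and 262, 401 and 249 with 2DG, 2FF and anti-PD-L1. Over members without S100a8 and S100a9 the counts were 162 and 175 of 8930, 300 and 361 of 9180, and 188 and 197 of 8787. The 3 comparisons share the control library, so values are set side by side. Interferon-gamma response genes were higher in all 3 treatments. Of 26 genes tested 13, 16 and 12 were past 2-fold with 2DG, 2FF and anti-PD-L1 and none was past it downward, with medians of 1.01, 1.2 and 0.95. The guanylate-binding protein gene Gbp2 stood at 177, 447, 617, 455, 667 and 549 CPM. Cxcl10 stood at 101, 295, 463, 299.7, 506 and 488 and Socs1, a feedback inhibitor, at 8.7, 38.3, 42.9, 30.8, 35.9 and 44. Cd274, the gene of PD-L1, stood at 208, 349.6, 659, 354, 522 and 619.5 CPM, with UMIs in 49.1, 68.8, 82.1, 69.4, 82 and 80.6% of members. In each of these genes the control was below all 5 treated libraries. Without members holding S100a8 or S100a9 (154 control members remained) the counts were 13, 19 and 16, and without those holding Hspa1a or Hspa1b (63 remained) 9, 15 and 10, with 1 gene past 2-fold downward in the first and the last.

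Other genes set the control apart in the same direction. Ifitm1, an interferon-induced membrane protein gene, stood at 125.3, 1038, 1719, 962, 1515 and 931 CPM, the growth factor gene Nrg1 at 26.5, 223, 586, 279.6, 750.4 and 429 and the fatty acid binding protein gene Fabp5 at 132, 696, 1987, 511, 1647 and 1196. Pdcd1lg2 stood at 20.4, 122, 254, 132, 135 and 141 and the metalloproteinase inhibitor gene Timp1 at 15.5, 137, 286, 107, 144 and 139. In these 5 genes the control lay below every treated library. Nrg1 had a log2 ratio of 2.86 with 2DG, 4.23 with 2FF and 3.18 with anti-PD-L1, and UMIs in 11.2, 41.7, 61.8, 43.6, 62.3 and 48.6% of members. Ccl5, a chemokine of T cells and of activated macrophages, stood at 111, 498, 1139, 547, 1163 and 656 CPM, and T and NK cell markers summed to 6.81, 31.6, 71.4, 93.9, 71.9 and 21.9 CPM in the same members. Among the Fc receptors, Fcgr4 stood at 176, 527, 780.4, 438, 736 and 583 and Fcgr1 at 196, 307, 392, 278, 369.6 and 329.5, with Fcgr4 past 2-fold in each of the 3 comparisons. Type I interferon genes were past 2-fold upward in 3, 10 and 5 of 23 and downward in none, Isg15 being at 61.1, 114, 266, 105, 248 and 247 CPM. Without members holding Hspa1a or Hspa1b 1 of 16, 4 of 20 and 0 of 19 were past it upward and 0, 1 and 1 downward, with medians of 0.29, 0.48 and 0.34, against 0.74, 0.97 and 0.66 in all members. Without members holding S100a8 or S100a9 3 of 22, 9 of 23 and 3 of 21 were past it upward and none downward.

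The control members carried more RNA of heat shock genes and of several tissue macrophage genes. Hsph1 stood at 560.3, 66, 49.3, 69.9, 38.5 and 59.1 CPM, Hspa1a at 597, 117, 90.6, 77.8, 56.9 and 91.3 and Hspa1b at 583, 95.2, 52.5, 61.1, 19.2 and 64.5. A sum of heat shock genes was 1860 CPM in control members, against 678 in the Spp1 macrophages and 849 in the Ly6c2/Lyz2 cells of the same library, and 165 to 338 in members of the other libraries. Vcam1, an adhesion molecule gene, stood at 382, 45, 31.9, 37.8, 29.1 and 28.5, the platelet factor gene Pf4 at 487, 154, 175, 103, 185 and 145, the scavenger receptor gene Stab1 at 357, 146, 97.2, 112, 88.5 and 112 and the fractalkine receptor gene Cx3cr1 at 420.5, 194, 89.4, 174, 105 and 81.2. Apoe stood at 7016, 4187, 3645, 4526, 3779.7 and 2369 CPM. In all of these the control was above every treated library. Of 17 resident genes 5, 5 and 7 were lower past 2-fold and 1, 4 and 2 higher (medians -0.65, -0.68 and -0.81), the higher ones led by Ccl24, an eosinophil chemokine, at 110.3, 229, 791, 266, 337 and 371 CPM. Without Hspa1a and Hspa1b cells the lower counts were 3, 3 and 2 of 13, 14 and 11 genes tested, with medians of -0.04, -0.31 and -0.32. Without S100a8 and S100a9 cells they were 5 of 16, 6 of 17 and 9 of 17, with medians of -0.73, -0.82 and -1.21.

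Glycolysis genes were above 0 in 17 of 17 in each of the 3 comparisons, with medians of 0.58, 0.88 and 0.70, though few passed 2-fold (0, 4 and 0). Gapdh stood at 1003, 1530.2, 2047, 1523, 1466 and 1685 CPM and Slc2a1 at 103, 149.5, 204, 174, 158 and 175. In members without Hspa1a and Hspa1b the medians were 0.21, 0.34 and 0.28, and 12, 14 and 15 of 17 were above 0. Without S100a8 and S100a9 the medians were 0.66, 0.91 and 0.78, with all 17 above 0. Cell cycle genes were below 0 in 16 of 16, with 5, 10 and 6 past 2-fold, Mki67 being at 164, 65.8, 40.4, 53.1, 43.4 and 48.1 CPM and in 28.8, 19.1, 13.8, 18.5, 16 and 15.5% of members. Without the heat shock cells 0, 0 and 1 of 11, 10 and 10 were past it, and without the S100a8 and S100a9 cells 3 of 15, 8 of 15 and 4 of 14. MHC class II genes were past 2-fold in 1, 3 and 1 of 16 (medians 0.52, 0.54 and 0.61), among them H2-Eb2 in each, at 4.16, 44.5, 26.9, 41.9, 17.8 and 19.3 CPM. Of 14 class II genes tested in each smaller set, 1, 3 and 2 were past it upward without S100a8 and S100a9 cells, and 1, 3 and 1 without the heat shock cells, where 1 was past it downward with 2FF. The part of heat shock RNA in these differences was not tested.

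**Figure D4:**
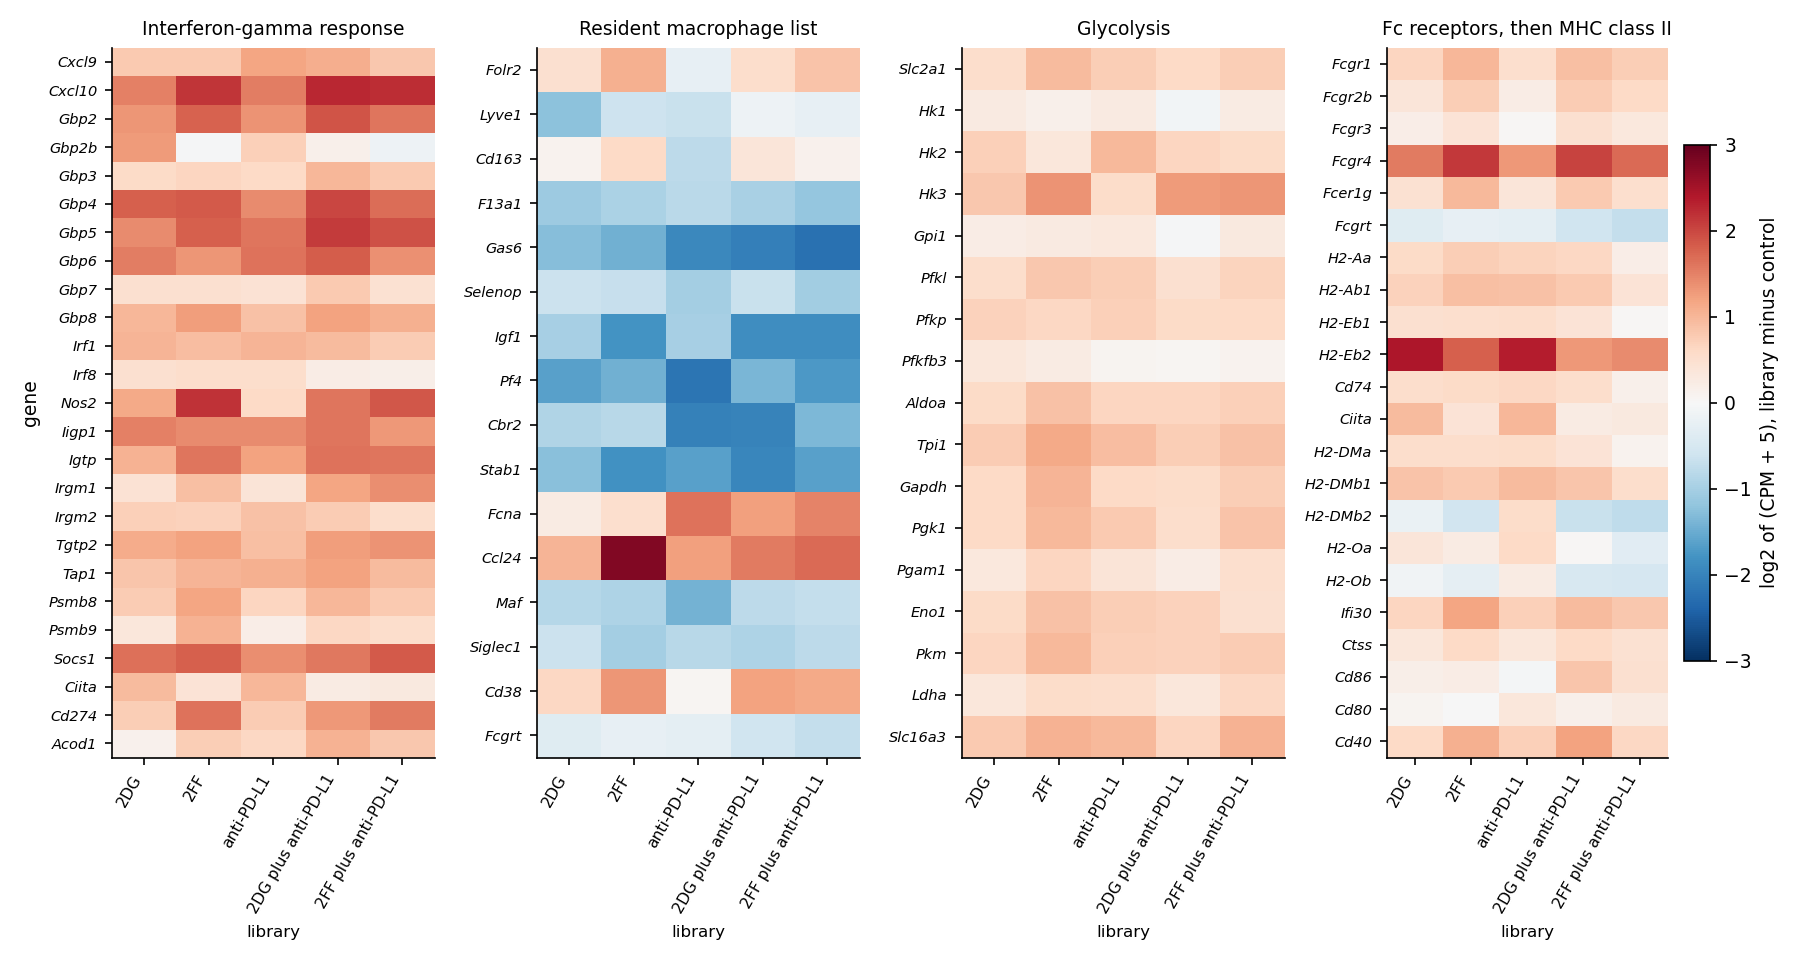
Fixed gene lists in the members of each treated library against the control (color, log2 ratio of CPM + 5, 1 mouse per column, color limits at 3). Nearly all interferon-gamma response genes are above 0, resident genes are mixed with Gas6, Pf4 and Stab1 below 0 throughout and Ccl24 above it, and all glycolysis genes are above 0 in the 2DG, 2FF and anti-PD-L1 columns.

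Adding 2DG or 2FF to anti-PD-L1 was compared with the anti-PD-L1 library, which both comparisons share. With 2DG, 95 of 9847 genes were higher (0.965%) and 70 lower (0.711%), and with 2FF 83 of 9624 (0.862%) and 49 (0.509%), with medians of -0.10 and -0.08. With TMM factors they were 153 and 49 with 2DG and 111 and 38 with 2FF, with medians of 0.04 and 0.03. With 1 CPM added in place of 5 the balance turned, at 150 higher and 180 lower with 2DG and 127 and 147 with 2FF. Several inflammatory genes were higher in both. Zfp36, which encodes a protein that destabilizes cytokine messages, stood at 804, 458, 892, 291, 1108 and 1216 CPM. Il1b stood at 301, 455, 868, 406, 1383 and 899, Ptgs2, the gene of cyclooxygenase-2, at 93.5, 63, 104, 51.8, 183 and 198 and oncostatin M (Osm) at 92.9, 132, 196, 115, 284 and 339. Anti-PD-L1 members were the lowest of the 6 libraries in Zfp36 and Ptgs2, and the combinations were the highest in these 2 and in Osm. Of 20 cytokine genes 4 were past 2-fold upward in each comparison and none downward. The transcription factor genes Nr4a1 (60.9, 51.8, 63.9, 32.5, 124 and 123 CPM) and Cebpb (481, 616, 1142, 398, 1038 and 1175) were past it in both comparisons, in a list of macrophage transcription factors with 5 genes higher and 1 lower of 23 with 2DG and 2 higher and 1 lower of 24 with 2FF. Inhba stood at 26.5, 8.6, 25, 5.02, 34.8 and 40.8. Slc7a11, the cystine transporter gene, stood at 125.3, 80.9, 199.6, 79.5, 346 and 242 and Ell2, an elongation factor gene, at 224, 271, 463, 250.5, 923 and 795. Genes that tissue dissociation and stress are known to raise, Zfp36 among them, were past 2-fold upward in 4 and 1 of 20 and downward in 1 and 0. A sum of stress genes was 12283 CPM in anti-PD-L1 members, 17743 with 2DG added and 16334 with 2FF added. In all cells but the members it was 11947, 13791 and 13755, and in Ly6c2/Lyz2 cells 15848, 16688 and 15684.5. The part of dissociation in these differences was not tested.

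In the combinations, lower levels than with the antibody by itself were found for Mgl2, Ccl17 and a few further genes. Mgl2, a lectin of the macrophage galactose type that binds galactose and N-acetylgalactosamine, stood at 387, 249.2, 118, 374, 72.6 and 95.1 CPM, with UMIs in 56.3, 31.8, 17.9, 37, 13 and 16.8% of members. These percentages are at full depth, at which control members were the deepest. Ccl17 stood at 117, 67.9, 29.8, 155, 2.63 and 26.7 CPM, from 10.9, 3.77, 1.35, 7.31, 1.21 and 1.28% of members. Ear2 stood at 112, 65.8, 15.7, 64.2, 12.5 and 16.4, Fgf13 at 162, 71, 29, 131, 18.9 and 63.5 and the fusion receptor gene Dcstamp at 33.5, 16.4, 14.1, 49.8, 8.15 and 4.91. The control was as high in Mgl2 as the anti-PD-L1 library, and 2FF without antibody was below both in all 5 genes. Of 26 interferon-gamma genes 0 were past 2-fold with 2DG and 2 with 2FF (medians 0.36 and 0.18), and of 17 glycolysis genes none (medians -0.16 and 0.03). Type I interferon genes were past 2-fold upward in 3 and 5 of 23 and downward in none, with medians of 0.51 and 0.59 and 22 above 0 in each. MHC class II genes were past it downward in 2 and 1 of 16 (medians -0.11 and -0.47), the first median being 0.06 with TMM factors. S100a8 and S100a9 were higher with 2FF plus anti-PD-L1 (221 against 10.3 CPM for S100a8), from 37 members of 547, and had log2 ratios of -0.32 and -0.59 after doublets had been removed. Retnla stood at 96.2 CPM with 2DG plus anti-PD-L1, from 15 members.

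**Figure D5:**
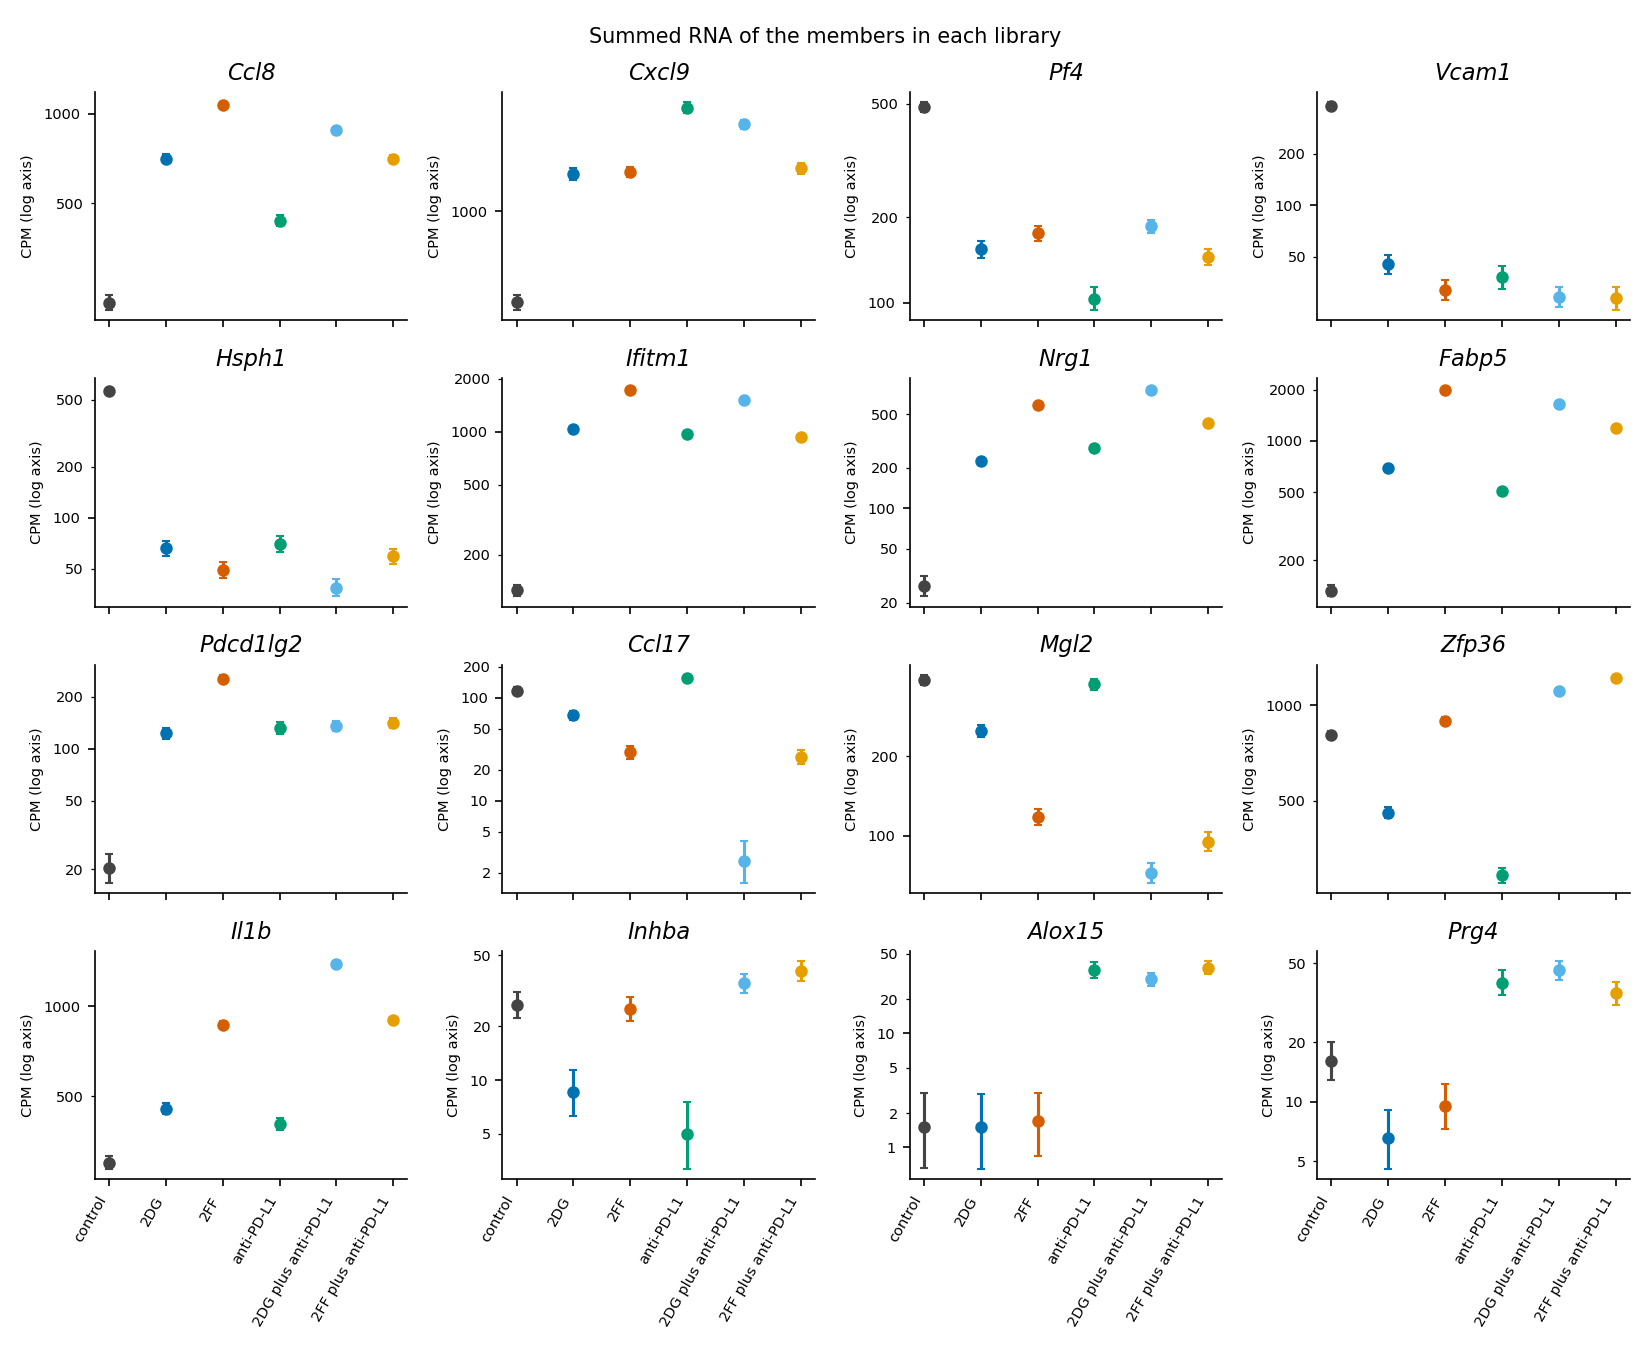
Levels of 16 genes in the summed RNA of the members of each library (CPM, log axes that differ between panels). Bars are 95% Poisson intervals and cover counting error only, with 1 mouse per point. The control lies apart in Pf4, Vcam1, Hsph1, Ifitm1, Nrg1, Fabp5 and Pdcd1lg2, and the 2 combinations lie above anti-PD-L1 in Zfp36, Il1b and Inhba and below it in Mgl2 and Ccl17.

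Mgat5, Fut8 and Gmds, genes of the glycan pathways that the drugs touch, differed little between the members of the 6 libraries. Mgat5, the enzyme that adds the branch to complex N-glycans, stood at 318, 277, 256, 291, 269.8 and 284 CPM and Fut8, which adds the core fucose, at 60.9, 51, 59, 58.8, 55.4 and 60.7. Gmds, which starts the synthesis of GDP-fucose, stood at 104, 96.6, 85.3, 117, 92.8 and 102. Man2a1 was the highest gene of the glycan enzyme list in the treated libraries, at 350, 421, 390, 529 and 524.5 CPM. In the control it lay below Mgat5. Of the 23 names in the list, 14 to 15 genes had enough UMIs and none was past 2-fold in any of the 5 comparisons. These do not set the combinations against the control. Glycan-binding receptors were past it downward in 0, 4 and 1 of 15 against the control with 2DG, 2FF and anti-PD-L1 and upward in none, Mgl2 being among the 4 with 2FF. In the comparison with Spp1 macrophages, 6 of 16 glycan-binding genes were higher in the members and 5 lower, with Clec10a (1.17, 0.0012) and Mgl2 (0.91, 0.015) on the higher side and Lgals3 (-0.83, 0.0046) and Clec4d (-0.96, 0.012) on the lower.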

How the data were processed

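Per the file headers the authors' deposited matrices hold raw UMI counts per gene and cell from Cell Ranger 7.0.0 (the labels name 3.1.0), aligned to mm10. The members and lists were chosen with earlier results of these data known. Cells were read with Python 3.11.15 and pandas 2.3.3. UMIs were summed per library and cell group (4578596 to 7605664 UMIs in the members). Cell groups of the same mouse were compared by edgeR 4.0.16 (quasi-likelihood, adjusted p under 0.05) with the mouse as a block, because all groups of a library come from that mouse, and treatments by log2 ratios of CPM + 5. Named were genes of 30 lists, the 8 highest and 8 lowest called fold changes per cell comparison, and the 5 highest and 5 lowest ratios between libraries, without rule, ribosomal, mitochondrial, predicted, immunoglobulin and T cell receptor genes or genes under 20% of their level in other cells. Csf1r, Aif1, Cd68 and Lyz2 were named outside the rule, as general markers. Other tools, filters, scalings, thinning and left-out libraries were tried. The test was also run on simulated counts that were not split by measured UMIs, so that run cannot check the effect of the gates. A few genes are not reported here.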

Additional observations from a re-analysis of the deposited data

Results flagged for a closer look

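In the members, the difference between the anti-PD-L1 library and its partner without antibody was at least 2-fold upward in 1 drug background and at least 2-fold downward in another for 5 genes of the fixed lists. The 30 lists hold 459 gene names, of which the cell type marker lists and the genes of the rule were not screened. The share of all genes that would meet this criterion was not computed, so the 5 genes cannot be set against a background. Genes such as Pdcd1lg2 turned as well, but were under 2-fold in a direction. Each background has 1 mouse per library, values of the same library recur between genes, and the differences were not tested. The log2 ratio of Ccl24 was 1.23 without another drug, 0.55 beside 2DG and -1.08 beside 2FF, a span of 2.31. That of Ccl3, a chemokine of inflamed macrophages, was -1.53, 1.08 and 0.57, a span of 2.61. H2-Eb2, an MHC class II gene with few UMIs, gave 2.36, -1.12 and -0.39, a span of 3.48. Timp1 gave 2.45, 0.07 and -1.02, a span of 3.47, and Zfp36 -1.45, 1.27 and 0.44, a span of 2.72. The first value of each gene rests on the control library, which stood apart in these cells.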

How the results depend on the processing

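The share of members depended on the limits. With at least 20 C1q UMIs it was 3.64%, 5.595%, 6.29%, 4.28%, 7.345% and 5.78% in the order used above, and with Spp1 and Gpnmb at 0 it was 1.895%, 3.87%, 4.32%, 3.08%, 5.54% and 3.69%. Among cells with at least 3000 UMIs, thinned to that number, it was 4.88%, 6.43%, 8.06%, 4.67%, 7.98% and 6.02%, a change of depth and of the cells counted (2123 left out in the control, 751 to 1218 elsewhere). Without the Cd3 and Cd79a limit, an alternative added after seeing the data, the treated libraries stood at 7.61%, 9.16%, 5.59%, 9.48% and 7.725%. In 16 of 36 settings a share moved by less than its interval. With a pseudocount of 1 CPM the genes past 2-fold were 590, 1089, 693, 330 and 274. With at least 200 UMIs they were 235 of 6349 for anti-PD-L1 against the control. Of named genes between libraries 208 of 284 values kept within counting error, and S100a9 and S100a8 turned to -0.59 and -0.32 with doublets removed. Over members without Hspa1a and Hspa1b, 25 of these values moved and 15 kept. Without the replicate block (the mouse), genes higher and lower than in Spp1 macrophages were 53 and 143, and than in Mrc1-negative cells 107 and 165. Without the low-count filter the higher counts were 689 and 746, and at 3000 UMIs the first was 246. Leaving out a library gave 173 to 473 higher and 268 to 691 lower genes against Spp1 macrophages, and 192 to 391 and 306 to 845 against Mrc1-negative cells. Of 332 values of named genes against other cells 324 kept direction and side of the threshold, 7 missed it and S100a9 turned to 0.49 with the stricter Ly6c2/Lyz2 gate. Of listed genes called against Spp1 macrophages, DESeq2 kept 111 of 119, the fit without the block 38 of 120, and those without 2DG or anti-PD-L1 73 and 70 of 120. Against Mrc1-negative cells the same fits kept 111, 31, 81 and 81 of 116, and that without 2FF 69. The causes were not tested. With 1 mouse per treatment no difference between treatments has a replicate check.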

Other observations

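A few genes with UMIs in few members were higher in the libraries with anti-PD-L1. Alox15, a lipoxygenase of peritoneal macrophages, stood at 1.51, 1.5, 1.69, 36.3, 29.9 and 37.6 CPM in the order used above, with UMIs in 0.533, 0.992, 1.05, 3.65, 2.28 and 2.56% of members. Prg4, a lubricin that marks peritoneal macrophages, stood at 16.1, 6.54, 9.53, 40.0, 46 and 35.4 CPM and Fcna, a ficolin, at 9.08, 11.6, 14.9, 38.2, 28.3 and 34.7. The 3 antibody libraries were above the 3 libraries without antibody in each of these genes. Of the peritoneal macrophage list, which holds all 3, 4 genes were past 2-fold upward and 2 downward of 10 tested for anti-PD-L1 over the control, 5 and 0 of 10 for the antibody beside 2DG and 2 and 0 of 10 beside 2FF, with 7, 7 and 10 above 0. Of all genes, 1.61% and 2.51%, 0.974% and 0.693%, and 0.294% and 0.152% were past 2-fold upward and downward in these comparisons. The 3 genes were singled out after their values had been seen, each library is 1 mouse, and no test was made.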
